A study of Mus musculus with 15 samples.

Results

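The genes of the mitochondrial respiratory chain were followed through 15 bulk RNA-seq libraries of mouse thalamus. Members were taken by symbol alone: 111 of the 29659 genes in the deposited tables carry the symbols of subunits and close relatives of complexes I to V, after 1 further symbol was dropped for its ending. Of these, 98 are nuclear genes and 13 lie on the mitochondrial genome. The nuclear genes comprise 83 subunit genes (36 of complex I, 4 of complex II, 8 of complex III, 20 of complex IV and 15 of complex V, the ATP synthase), 11 assembly factors (Ndufaf1 to Ndufaf7 and Sdhaf1 to Sdhaf4) and 4 other genes, namely Atp5s and Atp5sl, which are not subunits, and the pseudogenes Atp5l-ps1 and Atp5l-ps2. Genes entered the tests if 3 or more of the 15 libraries reached a log2 value of 3.32, or 10 in linear units. In all, 107 members passed and 4 did not.

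Mice were 4.5 months old and fell into 4 genotypes, all of which, as the study describes them, carried the human APOE4 knock-in on both alleles. Mouse Apoe in ELKO replicate 1 went against this label, as given below, and that library was kept in its group. EL mice (n = 3) had an intact Lilrb4a gene, and ELKO mice (n = 3) were Lilrb4a−/−. 5EL mice (n = 5) and 5ELKO mice (n = 4) were the corresponding genotypes with the 5xFAD amyloid transgenes. Lilrb4a encodes an inhibitory receptor of myeloid cells, which in brain are mainly microglia, and the deletion was present in every cell of the animal. No group without APOE4 was analysed here. The labels do not say which libraries share a litter, cage or extraction, so p-values measure the spread between these libraries.

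The respiratory chain passes electrons from NADH (complex I) and succinate (complex II) through complex III to oxygen at complex IV, and the proton gradient built on the way drives ATP synthesis at complex V. Complex II is encoded in the nucleus alone, whereas the other complexes combine imported nuclear subunits with a few hydrophobic subunits made inside the organelle. Mitochondrial messenger RNAs are cut from long transcripts of either strand, and only mt-Nd6 among these genes is read from the light strand. Neurons depend on oxidative phosphorylation for most of their ATP.

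Depth could not be read from the files, which hold log2 values and no counts. The paper lists read totals and RNA integrity for 5EL and 5ELKO libraries, with more 5ELKO libraries than were used here. It lists none for EL or ELKO, and those figures were not used here. Thalamic markers (Tcf7l2, Rora, Prkcd, Lef1, Gbx2) had a mean log2 value of 11.68 to 12.37 in all libraries. Lilrb4a itself was near the lower end of the scale, at 2.33 in ELKO and 5ELKO libraries, from 2.34 to 2.42 in EL and from 2.40 to 2.66 in 5EL. Mouse Apoe was 10.90 in ELKO replicate 1 and at most 6.37 elsewhere, against the label of that library. The choroid plexus list was 8.85 in ELKO replicate 2 and 8.49 in 5EL replicate 1 and at most 6.78 in the other libraries. The hepatocyte list was 5.44 in EL replicate 1 and 4.95 to 5.42 in 5ELKO, and at most 4.76 in the other libraries. EL replicate 3 and ELKO replicate 3 stood apart in the genes described here.

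The mean log2 value of the 81 tested nuclear subunit genes differed more among libraries of the same genotype than among genotypes. In EL it was 10.34, 10.41 and 10.77, in ELKO 10.29, 10.36 and 10.73, in 5EL 10.29, 10.34, 10.50, 10.42 and 10.32, and in 5ELKO 10.38, 10.26, 10.35 and 10.42 (replicates in label order). EL replicate 3 and ELKO replicate 3 were the highest, and the other 13 libraries lay between 10.26 and 10.50. Group means were 10.51 ± 0.23 in EL (SD, n = 3), 10.46 ± 0.24 in ELKO (n = 3), 10.38 ± 0.09 in 5EL (n = 5) and 10.35 ± 0.07 in 5ELKO (n = 4), and all groups overlapped.

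The mean of the 13 mitochondrial genes behaved alike. It was 13.22, 13.32 and 13.87 in EL, 13.13, 13.44 and 13.82 in ELKO, 13.11, 13.27, 13.60, 13.52 and 13.26 in 5EL, and 13.31, 13.23, 13.31 and 13.60 in 5ELKO. The same 2 libraries were the highest, above a range of 13.11 to 13.60 in the other 13. Group means were 13.47 ± 0.35 in EL, 13.46 ± 0.35 in ELKO, 13.35 ± 0.20 in 5EL and 13.36 ± 0.16 in 5ELKO, again with overlap between all groups. These means over members carry no test.

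**Figure D1:**
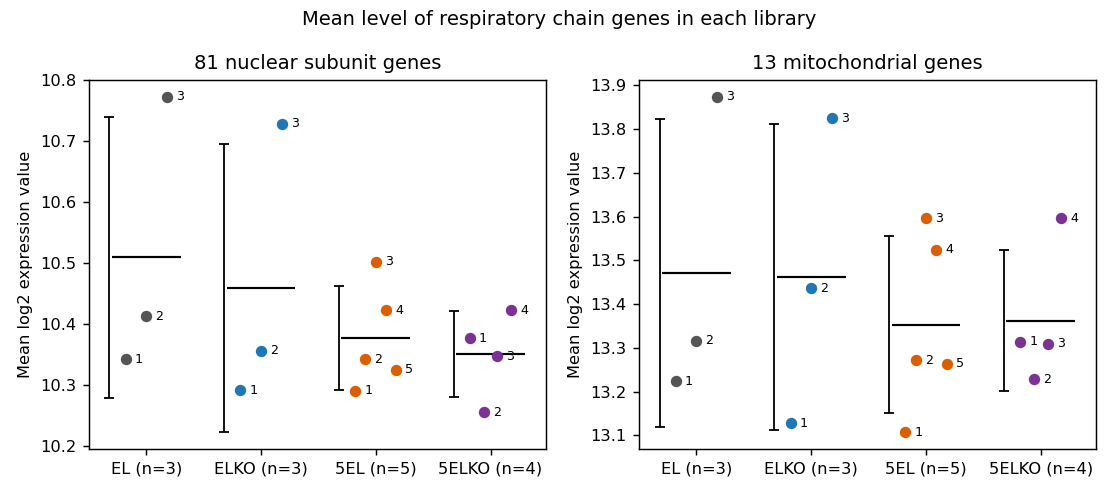
Mean log2 expression value of 81 nuclear subunit genes (left) and 13 mitochondrial genes (right) in each library, by genotype. Points are libraries with their replicate number, horizontal lines are group means and bars are 1 SD; in both panels replicate 3 of EL and of ELKO lie above the other 13 libraries.

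Within the nuclear set, single genes followed the mean closely. With each library taken as its deviation from its group mean, the correlation of a subunit gene with the mean of the other subunits had a median of 0.95 over 81 genes, and 73 genes exceeded 0.8. Of the 107 tested members, 102 (95.3%) had their highest value in EL replicate 3 or ELKO replicate 3, compared with 29.1% of all 15804 genes tested. The nuclear subunit exceptions were Sdha, Ndufb2 and Cox6b2. Because EL replicate 3 and ELKO replicate 3 were singled out by the means of these members, a share above that of all genes was largely set in advance. Only 2 subunit genes correlated negatively with the rest, and these were Sdha (r = -0.255), the catalytic flavoprotein of complex II, and Ndufb2 (r = -0.01), an accessory subunit of complex I. Over the 13 libraries other than EL replicate 3 and ELKO replicate 3 the median was 0.84, 51 genes exceeded 0.8, and Sdha correlated at 0.28 and Ndufb2 at -0.15. These correlations are across libraries that share tissue and processing, and are given as a description.

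Several core catalytic genes were abundant and varied little between libraries. Sdha was 13.32, 13.29 and 13.24 in EL, 13.36, 13.32 and 13.34 in ELKO, 13.28, 13.33, 13.36, 13.34 and 13.32 in 5EL, and 13.36, 13.35, 13.33 and 13.32 in 5ELKO, a range of 0.12 over all libraries. Its partner Sdhb, the iron-sulfur subunit, ranged by 0.49. Atp5a1 and Atp5b, the alpha and beta subunits of the catalytic head of ATP synthase, had mean values of 14.24 and 14.69 and ranges of 0.18 and 0.32. In complex I, the core subunits Ndufs1 and Ndufv1 both had means of 11.58, with ranges of 0.26 and 0.22. Uqcrc1, a core protein of complex III, averaged 12.06 with a range of 0.28, and the Rieske iron-sulfur protein Uqcrfs1 averaged 11.09 with a range of 0.43. Cox4i1 and Cox5a, nuclear subunits of complex IV, averaged 12.95 and 10.40 with ranges of 0.55 and 0.63. Cox4i1 and Cox5a thus spanned more than the core genes named here for complexes I, III and V. Cox7c, a small accessory subunit of complex IV, was 10.76, 10.79 and 11.45 in EL, 10.64, 10.63 and 11.34 in ELKO, 10.58, 10.69, 10.92, 10.83 and 10.60 in 5EL, and 10.82, 10.54, 10.73 and 10.89 in 5ELKO. Cox7c, Cox8a, Cox6a2 and Atp5k spanned 0.91 to 0.93 each, the widest ranges of the 81 tested nuclear subunits.

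The excess of the 2 high libraries differed with transcript length. EL replicate 3 exceeded the mean of the other 13 libraries by a median of 0.37 for the 6 subunit genes with transcripts under 500 bases, by 0.51 for the 31 genes of 500 to under 750 bases, by 0.46 for the 14 genes of 1000 to under 1500 bases and by 0.30 for the 12 genes of 1500 to under 2500 bases. In ELKO replicate 3 the medians were 0.54, 0.46, 0.35 and 0.21. Over the 81 genes, Spearman's rho of length with the excess was -0.30 in EL replicate 3 and -0.58 in ELKO replicate 3, a correlation across genes, which are not independent replicates. Over 15179 tested genes outside the chain rho was -0.41 in EL replicate 3, further from 0 than in the subunit genes, and -0.50 in ELKO replicate 3. Across length bins the medians of these other genes were on a lower level and did not move in one direction. In EL replicate 3 the median excess was 0.06 for 172 other genes under 500 bases, 0.11 for 328 of 500 to under 750 bases, 0.16 for 519 of 750 to under 1000 bases, 0.05 for 3449 of 1500 to under 2500 bases and -0.12 for 4809 of 4000 bases or more. In each of the 7 length bins the median of the subunit genes was above that of other genes in both libraries. The 2 libraries were singled out because the subunit mean was highest in them, so this order was largely set in advance. The bins of 2500 to under 4000 bases and of 4000 bases or more held only 4 and 2 subunit genes. Annotated lengths are those of the principal GENCODE transcript, and the part of RNA quality or library preparation in the relation was not tested.

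**Figure D2:**
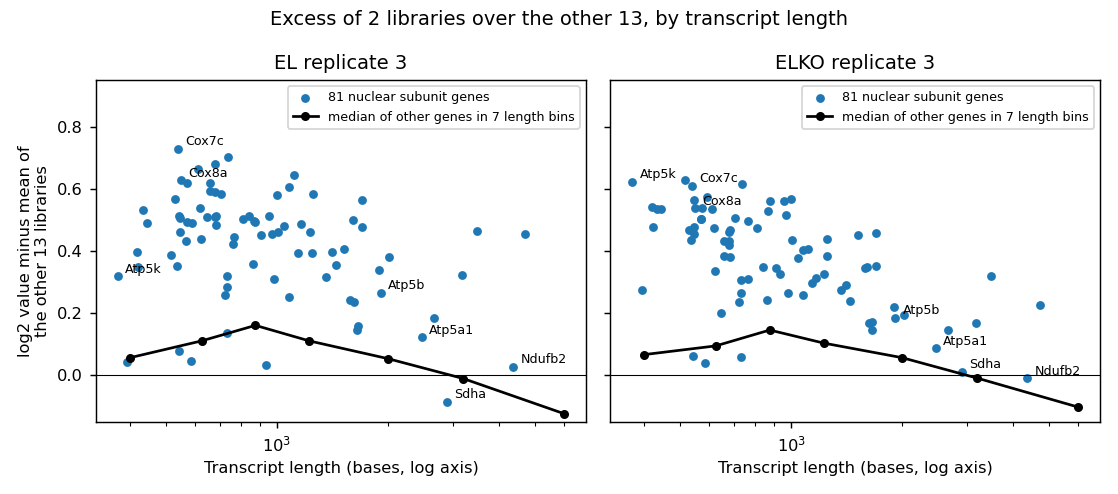
Excess of EL replicate 3 (left) and ELKO replicate 3 (right) over the mean of the other 13 libraries, in log2 units, against transcript length in bases on a log axis, for 81 nuclear subunit genes (blue) and as the median of other tested genes in 7 length bins (black). Cox7c and Cox8a are among the highest subunit genes, Sdha and Ndufb2 lie near 0, and the black line falls beyond the third bin.

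The nuclear and mitochondrial means rose and fell together although the genes sit on separate genomes. Their Pearson correlation over the 15 libraries was 0.93 and Spearman's rho was 0.95. Without EL replicate 3 and ELKO replicate 3 it was 0.86 (n = 13), and over the 9 libraries with 5xFAD it was 0.905. The nuclear mean also correlated at 0.95 with 81 cytosolic ribosomal protein genes and at 0.99 with 76 mitochondrial ribosomal protein genes (0.88 and 0.93 without the same 2 libraries). With the oligodendrocyte list the correlation was 0.67 (0.45 without the same 2 libraries), and with the neuron list it was -0.52 (0.17 without them). It was 0.68 with the smooth muscle list (0.32 without them), -0.695 with the ependymal list (-0.06) and -0.68 with 14 regulators of the nuclear genes (-0.125). The oligodendrocyte list was 12.64 in EL replicate 3 and 12.66 in ELKO replicate 3, against 12.20 to 12.67 elsewhere. The neuron list was 12.52 and 12.65 against 12.53 to 12.93, and the ependymal list was 6.04 and 6.06 against 6.25 to 7.19. The erythroid list was 5.39 in EL replicate 3 and at most 4.65 elsewhere. In bulk tissue, a different share of a cell type and a different RNA level per cell cannot be told apart, and the part of these cell types in the result was not tested.

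The genes outside the chain whose deviations were most like the nuclear mean were Gpx4 (r = 0.99), Hint1 (0.99), Rps14 (0.98), Sar1b (0.98) and Acyp2 (0.98). For the mitochondrial mean they were Cldn10 (0.98), Cwc15 (0.97), Rps7 (0.97), Abracl (0.97) and Mrpl14 (0.97), each over 15 libraries. Over the 13 libraries that remain when EL replicate 3 and ELKO replicate 3 are left out, these correlations were 0.97, 0.96, 0.93, 0.97 and 0.91 for the nuclear mean and 0.94, 0.94, 0.93, 0.93 and 0.93 for the mitochondrial mean.

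Because the nuclear members moved together, the 250 bases before the annotated start of each gene were searched on both strands for letters bound by known activators of these genes (RefSeq, GRCm38.p6, 1 entry a gene). An entry was matched for 67 of 83 subunit genes. CCGGAAG, the ETS family motif bound by GABPA, stood in 16.4% of the subunit promoters, in 12.4% of 11469 promoters of tested genes and in 7.1% of all 27025. The motif of NRF1 stood in 17.9%, 7.7% and 3.9%, and ATGGCGG, the motif of YY1, in 4.5%, 3.5% and 2.2%. The SP1 family letters GGGCGG stood in 35.8%, 58.0% and 32.9%. AAGGTCA, bound by ERRA, stood in 7.5%, 2.8% and 4.1%, the CREB family motif in 6.0%, 2.7% and 1.6%, and the TATA box letters TATAAA in 9.0%, 6.4% and 13%. A match of letters is a description and not a binding site. The 100 bases before the start are shown for 5 genes: Sdha, with the smallest range of the 81 tested subunit genes, Sdhd, the membrane anchor of complex II, Ndufb4, an accessory subunit of complex I, Atp5k, with one of the widest ranges, and Cox6a1, which is described below. Capitals mark matches to the ETS, NRF1 or YY1 letters on either strand. All 5 windows shown hold such a match, whereas most windows of the 67 subunit genes hold none. Cox7c and Cox8a, with ranges nearly as wide as that of Atp5k, are among those without a match.
Sdha, chr13:74350241-74350340, minus strand: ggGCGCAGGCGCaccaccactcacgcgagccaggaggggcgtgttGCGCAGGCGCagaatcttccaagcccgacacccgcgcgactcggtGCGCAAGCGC
Sdhd, chr9:50603850-50603949, minus strand: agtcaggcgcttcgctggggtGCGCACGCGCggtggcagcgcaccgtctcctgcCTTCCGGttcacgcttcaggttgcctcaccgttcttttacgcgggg
Ndufb4, chr16:37654369-37654468, minus strand: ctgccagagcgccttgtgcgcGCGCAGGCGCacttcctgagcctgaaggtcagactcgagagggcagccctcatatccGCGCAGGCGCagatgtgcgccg
Atp5k, chr5:108434400-108434499, minus strand: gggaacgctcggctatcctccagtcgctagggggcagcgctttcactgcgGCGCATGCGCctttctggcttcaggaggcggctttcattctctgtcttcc
Cox6a1, chr5:115348959-115349058, minus strand: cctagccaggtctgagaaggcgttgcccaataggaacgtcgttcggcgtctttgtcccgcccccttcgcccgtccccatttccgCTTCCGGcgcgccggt
Sdha carried 3 NRF1 matches in this window, and Atp5k carried 1. Cox6a1 and Sdhd each carried the ETS letters once.

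Levels of the 13 mitochondrial genes fell into a high and a low set. Means over 15 libraries were 18.49 for mt-Co1, 17.16 for mt-Cytb, 16.87 for mt-Nd1, 16.49 for mt-Nd5, 16.36 for mt-Nd2, 16.25 for mt-Nd4 and 14.24 for mt-Nd6. The other 6 were mt-Atp6 at 11.58, mt-Co2 at 11.38, mt-Co3 at 11.03, mt-Nd3 at 9.19, mt-Nd4l at 8.83 and mt-Atp8 at 6.34. The gap also held per kilobase, where mt-Nd6, the lowest of the high set, was 15.18 and mt-Atp6, the highest of the low set, was 12.13. mt-Co1, mt-Co2 and mt-Co3 encode the catalytic core of the same complex, and the first of them lay far above the other two. Together the 13 genes made up 4.12% to 6.59% of the summed linear values of a library, with mt-Co1 alone at 1.66% to 2.72%, and the 81 nuclear subunits 0.96% to 1.30%.

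Of the 6 low genes, 5 have a nearly complete copy in the nuclear genome, but long copies are not confined to the low set. GENCODE M21 annotates pseudogene copies of 7 mitochondrial genes between positions 24611535 and 24616197 of chromosome 1 (GRCm38), on the minus strand. The copies of mt-Co2 (Gm28661), mt-Atp6 (Gm10925), mt-Co3 (Gm28437) and mt-Nd4l (Gm10222) were identical to the gene over at least 99% of its length. The copy of mt-Nd3 (Gm28438) covered 99.1% with 1 mismatch. For mt-Nd4 the copy (Gm28439) covered 63.6% of the gene and for mt-Co1 (Gm29216) 31.3%. Transcripts outside this block were searched too, for at least 100 bases with at least 95% identity. Gm13340 and Gm29216 together then covered 100% of mt-Co1, the highest gene. Gm4076 covered 52.3% of mt-Nd5 and Gm13339 covered 49.1% of mt-Nd2. In all, 6 of the 13 mitochondrial genes were covered to 90% or more. No copy of mt-Nd1, mt-Nd2, mt-Nd5, mt-Nd6, mt-Cytb or mt-Atp8 is annotated in this block, although mt-Atp8 lies between mt-Co2 and mt-Atp6 on the mitochondrial genome. The copies had values of their own: 10.71 for Gm28661 beside 11.38 for mt-Co2, 11.45 for Gm10925 beside 11.58 for mt-Atp6, 10.55 for Gm28437 beside 11.03 for mt-Co3, 8.29 for Gm10222 beside 8.83 for mt-Nd4l and 6.83 for Gm28438 beside 9.19 for mt-Nd3. Reads from these genes and copies cannot be told apart over identical stretches, so these 5 genes are uncertain. The same holds for the 63.6% of mt-Nd4 that its copy covers, where no base differs. Stretches of 60 bases show how little separates genes and copies, with capitals at the base that differs.
mt-Co2, chrM:7013-7072, plus strand: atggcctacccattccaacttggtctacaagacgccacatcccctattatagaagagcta
Gm28661, chr1:24615506-24615565, minus strand: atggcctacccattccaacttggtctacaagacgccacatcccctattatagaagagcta
mt-Nd3, chrM:9459-9518, plus strand: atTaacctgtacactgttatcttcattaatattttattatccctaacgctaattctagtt
Gm28438, chr1:24613060-24613119, minus strand: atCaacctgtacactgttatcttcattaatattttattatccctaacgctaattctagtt
mt-Co1, chrM:6390-6449, plus strand: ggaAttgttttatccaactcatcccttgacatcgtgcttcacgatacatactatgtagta
Gm29216, chr1:24616129-24616188, minus strand: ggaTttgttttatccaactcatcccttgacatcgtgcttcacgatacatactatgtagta
Counted from 1 at the start of the gene, the substitutions from gene to copy were T3C in mt-Nd3 and A1066T in mt-Co1. Some genes also overlap each other, mt-Atp8 and mt-Atp6 by 43 bases, mt-Nd5 and mt-Nd6 by 14 bases on opposite strands, and mt-Nd4l and mt-Nd4 by 7 bases. Counting ignored strand, so read pairs in the bases that mt-Nd5 and mt-Nd6 have in common cannot be told apart by strand. Among nuclear subunit genes, 25 of 83 had a stretch of at least 100 bases with at least 95% identity in the transcript of another gene. For 12 of them it covered 50% or more of the transcript.

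Most of the high mitochondrial genes moved together. The within-group correlation of a gene with the mean of the other mitochondrial genes was 0.957 to 0.980 for mt-Nd1, mt-Nd2, mt-Nd4, mt-Cytb and mt-Co1, but 0.539 for mt-Nd5 and 0.467 for mt-Nd6. The lower values rested on EL replicate 3 and ELKO replicate 3: without them mt-Nd5 was at 0.887 and mt-Nd6 at 0.834, and the 5 others at 0.905 to 0.960. mt-Nd1, a core subunit of complex I, was 16.67, 16.88 and 17.50 in EL, 16.53, 16.86 and 17.34 in ELKO, 16.63, 16.79, 17.03, 16.93 and 16.74 in 5EL, and 16.72, 16.64, 16.78 and 17.05 in 5ELKO. mt-Co1, the catalytic subunit of complex IV, was 18.32, 18.53 and 18.98 in EL, 18.24, 18.48 and 18.74 in ELKO, 18.35, 18.36, 18.67, 18.52 and 18.43 in 5EL, and 18.36, 18.38, 18.39 and 18.64 in 5ELKO. EL replicate 3 was the highest library for both, and the genotypes overlapped. mt-Nd5, the last complex I gene of the heavy strand transcript, was 16.43, 16.51 and 16.37 in EL, 16.34, 16.61 and 16.62 in ELKO, 16.42, 16.55, 16.61, 16.70 and 16.40 in 5EL, and 16.38, 16.41, 16.42 and 16.66 in 5ELKO. mt-Nd6, on the light strand, was 14.22, 14.37 and 14.11 in EL, 13.95, 14.41 and 14.39 in ELKO, 14.13, 14.32, 14.34, 14.46 and 14.07 in 5EL, and 14.13, 14, 14.16 and 14.48 in 5ELKO. Relative to the mean of the other 13 libraries, EL replicate 3 was higher by 0.71 in mt-Nd1, 0.59 in mt-Cytb, 0.55 in mt-Co1, 0.50 in mt-Nd4 and 0.47 in mt-Nd2, but differed by -0.13 in mt-Nd5 and -0.12 in mt-Nd6. ELKO replicate 3 was above that mean in all 13 genes, by 0.12 in mt-Nd5 to 1.28 in mt-Nd4l. The low set was noisier, with a within-group SD of 0.61 for mt-Co2, 0.56 for mt-Co3 and 0.54 for mt-Atp6, compared with 0.13 for mt-Nd5 and 0.21 for mt-Co1.

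**Figure D3:**
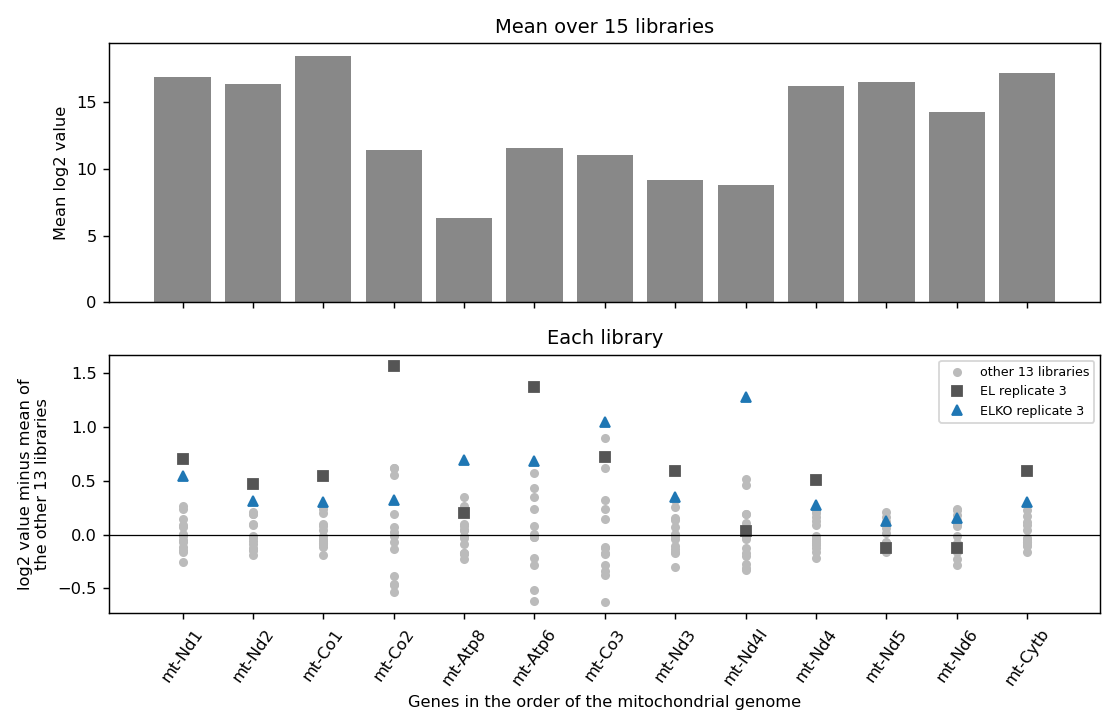
The 13 mitochondrial genes in genome order. The upper panel gives the mean log2 value over 15 libraries as bars from 0; the lower panel gives each library minus the mean of 13 libraries (grey), with EL replicate 3 as squares and ELKO replicate 3 as triangles. Both lie above the grey points for mt-Nd1 and mt-Co1, and EL replicate 3 lies below 0 for mt-Nd5 and mt-Nd6.

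Several complex IV subunits exist as a common form and a form of restricted tissue. In each such pair the common form prevailed per kilobase in all 15 libraries. Cox4i1 stood above Cox4i2, a form known from lung and vascular cells, by 8.02 ± 0.12 on the log2 scale per kilobase (SD, n = 15). The difference was 6.32 ± 0.20 between Ndufa4 and its hypoxia-inducible relative Ndufa4l2, 6.36 ± 0.20 between Cox7b and Cox7b2, and 6.05 ± 0.23 between Cox6b1 and the testis form Cox6b2. Cox7a2 exceeded the muscle form Cox7a1 by 5.77 ± 0.17, and it was close to Cox7a2l, a factor of supercomplex assembly, with a difference of 0.55 ± 0.12. Cox6a2, the heart and skeletal muscle form, was the exception in abundance. It averaged 8.56 and was only 4.05 ± 0.13 below Cox6a1 per kilobase, while the skeletal muscle list (Acta1, Ckm, Myl1, Tnnt3, Actn3, Myh4) stayed between 2.24 and 2.30 in every library. Cox8b and Cox8c, the muscle and testis forms of Cox8a, lay below the filter at 1.79 and 0.64. Just above the filter were Cox7b2 at 3.53, Cox7a1 at 4.41 and Cox4i2 at 4.86, and just below it Cox8b, Cox8c and the pseudogene Atp5l-ps1 at -0.23. The deposited transform draws low genes together, so these distances are on its scale.

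**Figure D4:**
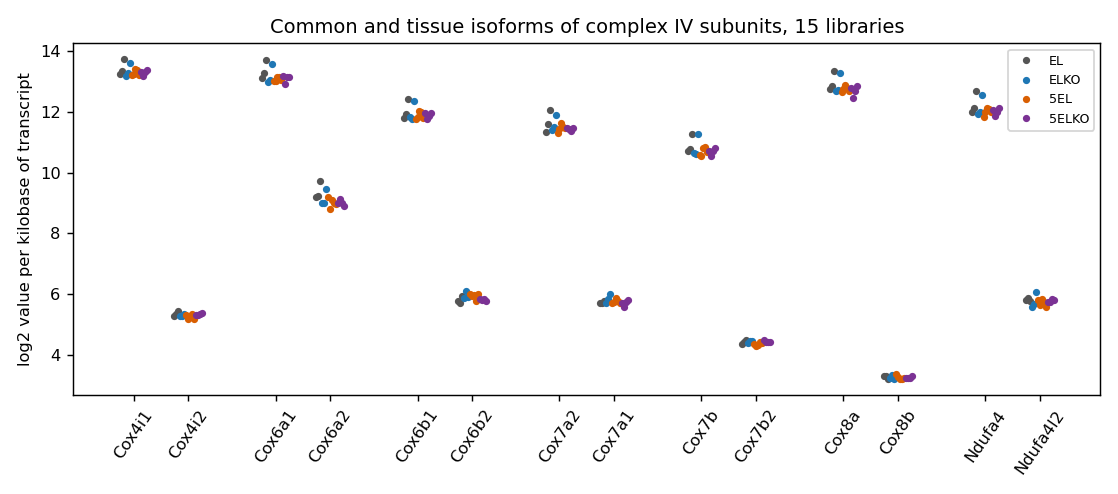
Log2 value per kilobase of transcript for common and restricted isoforms of complex IV subunits, 1 point a library, coloured by genotype. Cox6a2 lies nearer to its common partner than the other restricted forms do, and Cox8b, which is below the filter, lies lowest of the genes drawn.

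The comparison of 5ELKO with 5EL asks how loss of Lilrb4a bears on the chain in amyloid-bearing mice. In this contrast 1 member was higher and 2 were lower at a nominal p under 0.05, against 1.53% of 15743 genes higher and 0.959% lower. No member had an adjusted p under 0.05 (limma), where 3 genes of the whole table did (0.0191%). The differences of the 81 nuclear subunits had a median of -0.03 and ranged from -0.14 to 0.09, and those of the 13 mitochondrial genes had a median of -0.03 and ranged from -0.07 to 0.23. Over all genes the median was 0.00. Of the 107 members, 80 differences were negative and 27 positive. The hepatocyte list moved with these groups, at 4.95 to 5.42 in 5ELKO and 4.56 to 4.76 in 5EL, and its part in the differences was not tested.

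The 3 members past nominal p were low or accessory genes of complex IV. Cox7b2 was 3.48, 3.40, 3.45, 3.54 and 3.50 in 5EL and 3.59, 3.55, 3.55 and 3.56 in 5ELKO, a difference of 0.09 ± 0.03 (SE; exact permutation test, p = 0.0159; adjusted p = 0.999). The groups did not overlap, but the gene lies at the filter. Cox7a2l, which helps to join complexes III and IV, was 11.03, 11.07, 11.30, 11.15 and 11.04 in 5EL and 10.96, 10.91, 10.98 and 11.08 in 5ELKO. The groups overlapped, with a difference of -0.14 ± 0.06 (exact permutation test, p = 0.0635). Cox6b2 was 5.23, 5.18, 5.21, 5.00 and 5.22 in 5EL and 5.07, 5.03, 5.08 and 5.02 in 5ELKO, a difference of -0.12 ± 0.05 (exact permutation test, p = 0.0794), with 5EL replicate 4 below every 5ELKO library. Next by p were Atp5d, the delta subunit of ATP synthase, at -0.10 ± 0.05, and Sdhc, a membrane anchor of complex II, at -0.09 ± 0.05. The smallest p that this two-sided test of 5 against 4 libraries allows is 0.0159, the value of Cox7b2. Without 5ELKO replicate 2, 3 members were higher and 0 lower, and without 5EL replicate 3, 0 members passed in either direction.

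ELKO against EL asks the same in mice without amyloid. No member passed a nominal p of 0.05 in limma, against 1.05% of 15804 genes higher and 1.3% lower, and the whole table held 0 genes at an adjusted p under 0.05 (0%). The median difference was -0.05 over 81 nuclear subunits and -0.08 over 13 mitochondrial genes. The members with the smallest p were Cox6b2 at 0.15 ± 0.07, Sdhaf3, an assembly factor of complex II, at -0.12 ± 0.07, Cox7a1 at 0.12 ± 0.07, Cox6a2 at -0.22 ± 0.14 and the complex I assembly factor Ndufaf4 at -0.16 ± 0.11 (adjusted p = 0.998 for each). An exact test of 3 against 3 libraries cannot go below 0.1.

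Libraries of EL and ELKO with the same replicate number had correlated deviations, so this contrast was also fitted on their 6 libraries with a replicate block. Replicates 1 and 2 did not pair by number alone: EL replicate 1 correlated at 0.376 with ELKO replicate 2, above the 0.325 of EL replicate 2 with ELKO replicate 2. In that paired fit 10 members were lower and 0 higher at a nominal p under 0.05, against 3.05% of 15727 genes lower and 4.01% higher, and 0 members passed at an adjusted p (the smallest was 0.69). With the same block in the 15-library fit 0 members passed in either direction, and the fit on 6 libraries was added after seeing the data. The 10 were Cox6a2, Cox6a1, Cox7c, Atp5o, Ndufa12, Cox6c, Ndufaf4, Ndufb8, Ndufa4 and Atp5c1, with differences from -0.11 in Atp5c1 to -0.22 in Cox6a2. The nuclear mean of ELKO minus EL was -0.05, -0.06 and -0.04 in the 3 same-numbered pairs, whereas the mitochondrial mean differed by -0.10, 0.12 and -0.05. No label pairs these libraries, and the pairing was judged from the same values. Replicates 1 and 2 could be matched the other way, with other differences. Neither the even nuclear differences nor the paired fit thus gives independent support for an effect of the deletion. Without EL replicate 3, the unpaired median over members was 0.08 with 1 member higher, and without ELKO replicate 3 it was -0.18 with 12 members lower. Without EL replicate 1 it was -0.15 with 4 lower, and without ELKO replicate 1, the library with mouse Apoe, it was 0.03 with 2 higher. The shares over all genes in these fits with a library left out are not printed here.

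5EL against EL compares amyloid-bearing with amyloid-free mice with Lilrb4a intact. Of the 107 members, 100 had a negative difference, with a median of -0.13 over nuclear subunits (range -0.37 to 0.13) and -0.14 over mitochondrial genes (range -0.37 to 0.11), where the median over all genes was 0.00. Of these, 3 passed a nominal p of 0.05, all lower, against 3.88% of 15804 genes lower and 3.82% higher, and no gene of the table passed an adjusted p of 0.05 (limma, 0%). The direction rested on 1 library. Without EL replicate 3, 54 differences were negative and 53 positive, with a median of 0.00, and the mitochondrial mean difference turned from -0.12 to 0.08. Of the 3 calls, 0 were left, and 1 member was higher at nominal p. Without EL replicate 1 the median was -0.22 and 31 members were lower at nominal p, still with 0 at an adjusted p under 0.05. Calls over all genes rose too without this library, from 490 to 1701 in the test for any difference among the 4 genotypes. That is another test, and the share over all genes in 5EL against EL without this library is not printed here. The 31 members therefore cannot be set against a background. The hepatocyte list was 5.44 in EL replicate 1, 4.60 and 4.59 in the other EL libraries and 4.56 to 4.76 in 5EL, and its part was not tested.

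Cox6a2 (chr7:128205435-128206387, minus strand) had the smallest p of the members in this contrast. It was 8.64, 8.69 and 9.16 in EL and 8.63, 8.25, 8.55, 8.44 and 8.42 in 5EL, a difference of -0.37 ± 0.13 (exact permutation test, p = 0.0357; adjusted p = 0.63). The groups did not overlap, but EL replicate 1 and 5EL replicate 1 lay side by side. Without EL replicate 3 the difference was -0.20. The common form Cox6a1 (chr5:115345642-115348981, minus strand) was 12.30, 12.47 and 12.90 in EL and 12.21, 12.20, 12.33, 12.33 and 12.23 in 5EL. The groups overlapped, and the difference of -0.29 ± 0.13 became -0.12 without EL replicate 3. Ndufaf4 was 9.47, 9.64 and 9.97 in EL and 9.39, 9.38, 9.53, 9.64 and 9.46 in 5EL, and its difference of -0.21 ± 0.10 became -0.07. In the same contrast Cox6b2 differed by 0.13 ± 0.06 and the complex I methyltransferase Ndufaf7 differed by -0.10 ± 0.05, neither at a nominal p under 0.05.

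5ELKO against ELKO is the amyloid comparison in mice without Lilrb4a. Here 102 of 107 members had a negative difference, with a median of -0.11 over nuclear subunits and -0.06 over mitochondrial genes, and 0 members passed a nominal p of 0.05, against 0.892% of genes lower and 1.48% higher (limma; 0 genes at an adjusted p under 0.05, 0%). The hepatocyte list was 4.95 to 5.42 in 5ELKO and 4.53 to 4.72 in ELKO, and its part in the differences was not tested. The direction again rested on a single library: without ELKO replicate 3, 71 differences were positive and 36 negative, with a median of 0.03. Without ELKO replicate 1, the library with mouse Apoe, the median was -0.19 and 4 members were lower at nominal p. The share over all genes in that fit is not printed here. Cox6b2 was 5.11, 5.32 and 5.15 in ELKO and 5.07, 5.03, 5.08 and 5.02 in 5ELKO and did not overlap (difference -0.14 ± 0.07; exact permutation test, p = 0.0571, which is the floor for 4 and 3 libraries). Cox7a1, which had the smallest p in limma, Atp5d, Sdhd and Uqcr10 had differences of -0.14, -0.15, -0.18 and -0.21, and their groups overlapped.

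**Figure D5:**
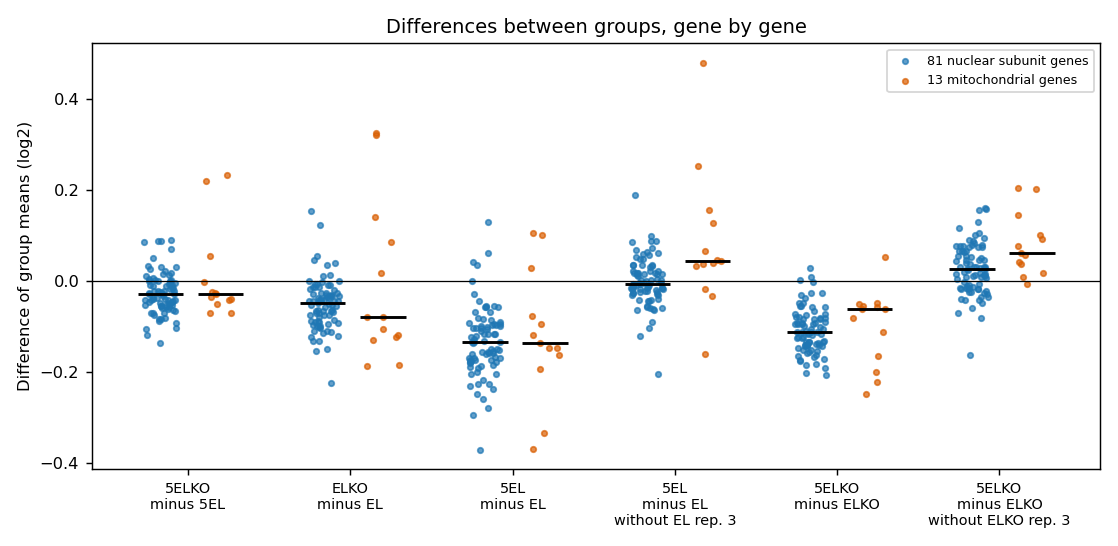
Difference of group means, in log2 units, for 81 nuclear subunit genes (blue) and 13 mitochondrial genes (orange), with the median as a black line. The nuclear median is -0.13 for 5EL minus EL and -0.11 for 5ELKO minus ELKO, and the panels beside them show both near 0 once replicate 3 of EL or of ELKO is left out.

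The interaction tests whether the deletion acts differently with and without amyloid. Only Cox6b2 passed a nominal p of 0.05 among the members, at -0.27 ± 0.09 (adjusted p = 1), against 1.23% of genes lower and 1.5% higher, and no gene passed an adjusted p of 0.05 (limma, 0%). Its difference was 0.15 for ELKO minus EL and -0.12 for 5ELKO minus 5EL. Without ELKO replicate 2 and 5EL replicate 1, the choroid plexus libraries, which hold the highest Cox6b2 values of their groups, 0 members passed. The median interaction over members was 0.03, and it was -0.10 without EL replicate 3 and 0.16, with 2 members higher, without ELKO replicate 3. Without EL replicate 1 it was 0.12, and without ELKO replicate 1 it was -0.06, with 2 members lower. A test for any difference among the 4 genotypes found 1 member at a nominal p under 0.05, Cox6a2 (adjusted p = 0.999), against 3.1% of all genes, and 0 genes at an adjusted p under 0.05 (0%). Next by p were Sdhaf3, Cox7b2, Cox6b2 and Atp5d. Without EL replicate 1, 11 members passed at nominal p, and the count over all genes rose from 490 to 1701.

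Genes that build and serve the chain were counted in the same contrasts. Of 38 tested genes for assembly and translation outside the members, 5 were lower in 5EL than in EL at a nominal p under 0.05 (Ttc19, Coa6, Timmdc1, Atpaf1 and Tmem70) and 0 were higher, with a median of -0.08 and 36 of 38 negative, where 3.88% of all genes were lower. Among 14 electron carrier genes only Cycs, which encodes cytochrome c, was lower, and among 21 genes of mitochondrial DNA expression Tfb2m, Polg2 and Fastkd2 were. Of 76 mitochondrial ribosomal protein genes 3 were lower (Mrpl34, Mrps18b and Mrpl49), and of 14 citric acid cycle genes 0 were. Of 14 regulators, Esrra was lower, and 11 had a positive difference. The 2 mitochondrial ribosomal RNAs had a median of -0.34 and neither passed. Of 81 cytosolic ribosomal protein genes 0 passed in any contrast. Their direction was as one-sided as that of the members, with 76 negative in 5EL against EL (median -0.08) and 81 in 5ELKO against ELKO (median -0.11). It too rested on single libraries, with 73 positive without EL replicate 3 and 74 without ELKO replicate 3. In 5ELKO against 5EL, Mrps9 and Mrpl12 were lower and no gene of the other lists passed. In ELKO against EL it was Mrps9 and Mrps18b, and in 5ELKO against ELKO Tmem126b was lower and Nrf1, which encodes an activator of nuclear respiratory genes, was higher. In the interaction 0 genes of these lists passed. Without EL replicate 3, 0 genes of these lists passed in 5EL against EL in either direction, and the assembly and translation list had a median of -0.02 with 28 of 38 negative. Without ELKO replicate 3, 0 passed in 5ELKO against ELKO. These counts with a library left out were added after seeing the data, as were the correlations over 13 libraries.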

How the data were processed

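Total RNA of thalamus was sequenced after poly(A) selection. Per the labels and methods, the authors used Trimmomatic 0.39 for trimming, HISAT2 2.2.1 for alignment (GRCm38), SAMtools 1.16.1, and featureCounts 2.0.3 for unstranded counts of read pairs by gene name. The deposited values are on a log2 scale, 29659 genes a library, from -2.27 to 18.98; the transform is not given in the sources used here, and low genes look drawn towards their mean. No counting interval can be derived from these values. All 105 pairs of libraries were compared and 0 were identical.

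Differences were fitted with limma 3.58.1 in R 4.3.3 (lmFit, eBayes with a trend, two-sided, Benjamini-Hochberg adjustment over all genes tested): 5ELKO against 5EL on 9 libraries (15743 genes), all other contrasts on 15 (15804 genes), with genes kept at a log2 value of 3.32 in at least 4 of the 9 or 3 of the 15. The call is a nominal p under 0.05. Single genes were also compared by two-sided exact permutation tests (scipy 1.17.1). The code was tested on simulated data. Coordinates and lengths are from GENCODE M21, promoters from RefSeq, and copies were sought with blastn 2.17.0. Members and lists were chosen with earlier results of these data known; genes named are all mitochondrial members, core subunits, isoform pairs, genes next to the filter and the 5 nuclear members with the smallest p in each contrast, of which not all differences are printed, and 1 item is not reported here. Genes shown by promoter, and others used as examples of range, were chosen after their values were seen.

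Same-numbered EL and ELKO libraries had correlated deviations (0.453, 0.325 and 0.742 for replicates 1, 2 and 3), and were treated as pairs. Crossed numbers gave 0.376 for EL replicate 1 with ELKO replicate 2 and 0.295 for EL replicate 2 with ELKO replicate 1. Replicate 3 of either group with replicate 1 or 2 of the other gave -0.626 to -0.465. Only replicate 3 was thus set apart by its number. What same-numbered libraries share is not stated. Other groups' numbers did not pair.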

Additional observations from a re-analysis of the deposited data

Results flagged for a closer look

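In groups of 4 or 5 libraries, the gap between an extreme library and the rest was compared with the group's range (Dixon's criterion), for 96 group values, and chance flags about 1 in 20. A total of 9 were flagged. In 5ELKO, replicate 4 stood above the other libraries in mt-Co1 (18.64 against 18.36 to 18.39), mt-Cytb (17.27 against 17.03 to 17.07), mt-Nd4 (16.40 against 16.10 to 16.14) and mt-Nd5 (16.66 against 16.38 to 16.42). These 4 genes are read from the same strand and are not independent. In 5ELKO, replicate 2 was lowest in Cox6a1 (12.12 against 12.33 to 12.36) and Uqcr10 (9.51 against 9.74 to 9.78), and it also had the lowest nuclear mean of all libraries. In 5EL, Cox6b2 was lowest in replicate 4 (5.00 against 5.18 to 5.23). In genes under the filter, Cox8b was highest in 5ELKO replicate 4 at 1.83 and Cox8c in 5EL replicate 1 at 0.69. No member's interaction passed an adjusted p of 0.05.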

How the results depend on the processing

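No member passed an adjusted p of 0.05 in any contrast under any alternative. The counts at nominal p moved as follows. Their shares over all genes are not printed here, except for the paired fit of ELKO against EL. The counts alone therefore do not set members apart from other genes. In 5ELKO against 5EL (1 higher, 2 lower), 0 were higher with a variance prior without a trend, 0 in either direction with a fold over 1.2, 0 lower in the 15-library fit or with Xist as covariate, and 1 lower with no filter or with a replicate block, also on those groups alone. In 5EL against EL (0 higher, 3 lower), 6 were lower after recentring libraries on their median, 14 with the replicate block, 17 with that block on those groups alone, and 1 without the choroid plexus libraries or with Xist. In 5ELKO against ELKO (0 and 0), 1 was lower on those groups' libraries alone, 9 with the replicate block and 1 with it on those groups alone. In ELKO against EL (0 and 0), 10 were lower with the block on those groups alone. In the interaction (0 higher, 1 lower), 2 were lower with the block and 0 without the choroid plexus libraries. Of these blocks, those outside EL and ELKO join libraries that share only a number. Without EL replicate 3 and ELKO replicate 3 together, chosen after seeing the data like the blocks on 2 groups, 1 was higher and 1 lower in ELKO against EL and in 5EL against EL, 1 lower in 5ELKO against ELKO and 1 higher in the interaction.

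With 1 library left out at a time, counts higher and lower ranged from 0 to 3 and 0 to 3 in 5ELKO against 5EL, 0 to 2 and 0 to 12 in ELKO against EL, 0 to 1 and 0 to 31 in 5EL against EL, 0 and 0 to 4 in 5ELKO against ELKO, 0 to 2 and 1 to 2 in the interaction, and 0 to 11 in the test over 4 groups. Nuclear mean differences ranged from -0.0499 to 0.0058, -0.1855 to 0.0812, -0.2167 to -0.0011, -0.1919 to 0.0267 and -0.1071 to 0.1597 in the order of the 5 contrasts in the report, and mitochondrial ones from -0.0687 to 0.0704, -0.1897 to 0.1927, -0.2427 to 0.0827, -0.2684 to 0.0805 and -0.1833 to 0.1992. Counts over all genes moved too, and their shares in the single contrasts with a library left out are not printed here. In the test over 4 groups they ranged from 268 without EL replicate 3 to 1701 without EL replicate 1, against 490 with all libraries. The cause of these moves was not tested. The deposited log2 values carry no counts, and 3 libraries a group in EL and ELKO limit every contrast that uses them.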
